A study of Rattus norvegicus with 18 samples.

Results

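The 9 genes described here mark the subfields of the hippocampus and were followed in bulk RNA-Seq of the rat dorsal hippocampus, out of 38445 genes listed per library. They were taken by symbol as a measure of which subfields each dissected piece held. Fibcd1, Wfs1, Pou3f1 and Mpped1 stand for CA1, and Prox1, Dsp, C1ql2 and Tdo2 for the dentate gyrus. Bok was listed with them, but mouse expression atlases place it in CA3, and it was therefore kept apart from both sets. The rats were adult male Sprague-Dawley, wild type and 6 per group. The control group (C) was fed the Lieber-DeCarli liquid diet without ethanol, the ethanol group (E) the same diet with 9% ethanol (v/v), for 15 or 16 days and with 0 h of withdrawal, and the withdrawal group (W) was taken off the ethanol diet for 24 h. Each library came from 1 rat, and a forced liquid diet leaves no choice of intake, which limits the groups as a model of drinking. In total, 7 of the 9 genes passed the filter on low counts.

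The hippocampal circuit runs from the dentate gyrus, whose granule cells send mossy fibers to CA3, through the CA3 pyramidal cells to those of CA1. Each of these cell types keeps its own transcription factors and surface proteins throughout adult life. The RNA of such genes was taken here as a measure of how much of each subfield a tissue piece contained, which was not tested. In bulk tissue, fewer cells of a type and less RNA per cell cannot be told apart. Of the CA1 genes, Pou3f1 encodes a POU-domain transcription factor and Wfs1 wolframin, a protein of the endoplasmic reticulum membrane that is mutated in Wolfram syndrome. Mpped1 encodes a metallophosphoesterase-domain protein, and Fibcd1 a membrane receptor for acetylated sugars. Of the dentate genes, Prox1 encodes the homeobox factor that specifies granule cells, Dsp the desmosomal protein desmoplakin, C1ql2 a secreted C1q-like protein of mossy fiber synapses, and Tdo2 the tryptophan-degrading enzyme tryptophan 2,3-dioxygenase. Bok encodes a protein of the BCL-2 family of cell death regulators.

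Total counts on genes were 30873228 to 42679748 per rat. Ethanol 1 and 4 and withdrawal 1 and 5 stood apart from the rest on the marker genes. In ethanol 1 and ethanol 4, Wfs1, Pou3f1, Mpped1 and C1ql2 were below every control rat while Bok was above every control rat. In withdrawal 5, all 7 tested genes were below every control rat, and in withdrawal 1 this was so for 5 of 7, all but Pou3f1 and Mpped1. Fold changes are also given for the 14 others, a selection made after the values were seen. The libraries also fell into 3 index sets by the first of their barcodes, and all 6 controls had the first set, the 6 ethanol rats and withdrawal 1 and 2 the second, and withdrawal 3 to 6 the third. Index set and diet cannot be told apart in either comparison with the controls.

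The promoters of Wfs1 and Mpped1, a pair of CA1 genes that moved together across the rats, are shown as RefSeq gives them in the GRCr8 assembly, in a window across the gene start that lies mostly upstream, 5′ to 3′ on the strand of the gene. Capitals mark E-boxes, the motif CANNTG that is its own reverse complement and is bound by factors of the neuronal NEUROD family among others. The Wfs1 window is chr14:78034955-78035254 (+) and the Mpped1 window chr7:116824504-116824803 (+).
Wfs1: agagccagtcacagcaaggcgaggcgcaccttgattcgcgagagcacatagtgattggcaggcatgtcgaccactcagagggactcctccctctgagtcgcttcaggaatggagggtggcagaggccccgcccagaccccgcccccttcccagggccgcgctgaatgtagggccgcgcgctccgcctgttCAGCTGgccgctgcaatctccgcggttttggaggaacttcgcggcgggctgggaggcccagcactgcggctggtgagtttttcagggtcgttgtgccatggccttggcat
Mpped1: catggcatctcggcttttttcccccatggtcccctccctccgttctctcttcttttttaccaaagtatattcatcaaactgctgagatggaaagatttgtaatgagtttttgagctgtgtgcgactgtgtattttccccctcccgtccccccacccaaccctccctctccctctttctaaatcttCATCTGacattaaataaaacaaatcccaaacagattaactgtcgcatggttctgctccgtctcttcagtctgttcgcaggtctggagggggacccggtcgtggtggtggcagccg
Each window held 1 E-box, a motif found in 71.6% of the 27455 promoters of the table. Neither held the octamer ATGCAAAT on either strand, which POU-domain factors bind and which 1.64% of all promoters held. The Wfs1 window held 2 GC boxes (GGGCGG, either strand, in 34.9% of all promoters) and the Mpped1 window 0. The windows also differed in composition, with a GC content of 64.7% for Wfs1 and 49.3% for Mpped1 beside a median of 52.3% over all promoters.

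Fibcd1 and Tdo2 had almost no counts. Fibcd1 (Rnor_6.0, chr3:9365866-9399578, + strand) had 7 counts in all, in 5 of 18 rats, which is 0.0107 CPM (counts per 1e6 counts, here without scaling) with an exact Poisson interval of 0.00430 to 0.0221. The controls held 3 of these counts, the withdrawal rats 4 and the ethanol rats 0, and the 0 in the ethanol group allows up to 0.0140 CPM taken as 3 counts, or 0.0173 CPM as the upper end of the exact Poisson interval. Whether the Rnor_6.0 gene model used for counting covers the Fibcd1 transcript was not tested, so these values give counts on that model and not the level of the RNA. Tdo2 (chr2:180897059-180914919, - strand) had 20 counts in 8 of 18 rats, 11 in controls, 8 in ethanol rats and 1 in withdrawal rats, or 0.0306 CPM (0.0187 to 0.0472). Of the 11 control counts, 6 came from 1 rat, control 1. The intervals cover counting error only. The span of Tdo2, introns included, overlaps that of another gene on the same strand, Spopfm2l2. Whether their exons overlap was not tested, and reads in exon sequence that both share could not be assigned to either. Neither gene was tested between the groups, and the CA1 and dentate sets therefore rest on 3 genes each.

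The other 7 genes were measured at levels that differed widely per length. In TMM-normalized CPM and per kilobase of exon, the control means were 99.0 ± 14.3 (SD, n = 6) for Wfs1, 58.2 ± 7.61 for C1ql2, 38.8 ± 6.34 for Bok, 37.1 ± 3.92 for Mpped1, 16.2 ± 1.86 for Pou3f1, 13.1 ± 1.21 for Prox1 and 0.470 ± 0.165 for Dsp. Neighbors in this order differed by more than the larger of their SDs, except Bok and Mpped1, which differed by less. Dsp was the lowest of the dentate genes, with 54 to 359 counts per rat. The same order of the 7 genes held over the means of all 18 rats, from 94.1 CPM per kilobase for Wfs1 to 0.501 for Dsp.

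The CA1 genes did not separate the groups. Wfs1 (chr14:78640707-78665224, +) had a lowest, median and highest level of 236, 267 and 344 CPM in the controls, 124, 269 and 334 in the ethanol rats, and 75.5, 307 and 348 in the withdrawal rats. The medians rank withdrawal above the other groups, yet the lowest 2 withdrawal rats, withdrawal 5 and 1, lay below all controls, and the groups overlapped. The fold change (log2, limma-voom with 3 surrogate variables) was -0.067 in W vs. C (SE 0.12, q = 0.799), 0.024 in E vs. C (q = 0.962) and -0.092 in W vs. E (q = 0.776). Surrogate variables are sources of shared variation that are estimated from all genes and removed before the groups are compared, and q is the p-value adjusted over all 17853 genes tested.

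Pou3f1 (chr5:142643599-142646580, +) was at 40.4, 49.6 and 55.8 CPM in the controls, 19.4, 45.9 and 57.5 in the ethanol rats, and 28.8, 47.3 and 63.7 in the withdrawal rats. Its lowest values were those of ethanol 1 and ethanol 4, and the other 4 ethanol rats lay above the lowest control. Fold changes were -0.015 (SE 0.067, q = 0.929), 0.013 (q = 0.966) and -0.028 (q = 0.892) in the same order of comparisons. Mpped1 (chr7:124675087-124751408, +) was at 131, 162 and 181 CPM in the controls, 70.3, 173 and 185 in the ethanol rats, and 114, 161 and 186 in the withdrawal rats. The same ethanol rats were lowest, and the ethanol median was the highest of the 3. Its fold changes were -0.022 (SE 0.079, q = 0.908), 0.12 (q = 0.591) and -0.14 (q = 0.442). In W vs. C the 95% intervals of this model were -0.19 to 0.15 for Mpped1, -0.16 to 0.13 for Pou3f1 and -0.32 to 0.19 for Wfs1. Without surrogate variables they were wider, -0.44 to 0.39, -0.52 to 0.42 and -0.88 to 0.41. The mean log2 CPM of the 3 CA1 genes correlated at r = -0.86 with 1 of the surrogate variables. The narrower intervals therefore leave out variation that these genes share. In the 14 rats the W vs. C values were 0.14 for Wfs1, 0.031 for Pou3f1 and 0.012 for Mpped1, all of the opposite sign to those over 18 rats and with q of 0.317 or more. The E vs. C values there were 0.074, 0.067 and 0.18, and the W vs. E values 0.066, -0.036 and -0.17, and 0 of them passed the threshold. With no surrogate variables the fold changes of Wfs1, Pou3f1 and Mpped1 were -0.24, -0.052 and -0.025 in W vs. C, -0.20, -0.32 and -0.17 in E vs. C and -0.037, 0.27 and 0.14 in W vs. E, where 0 passed either.

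**Figure D1:**
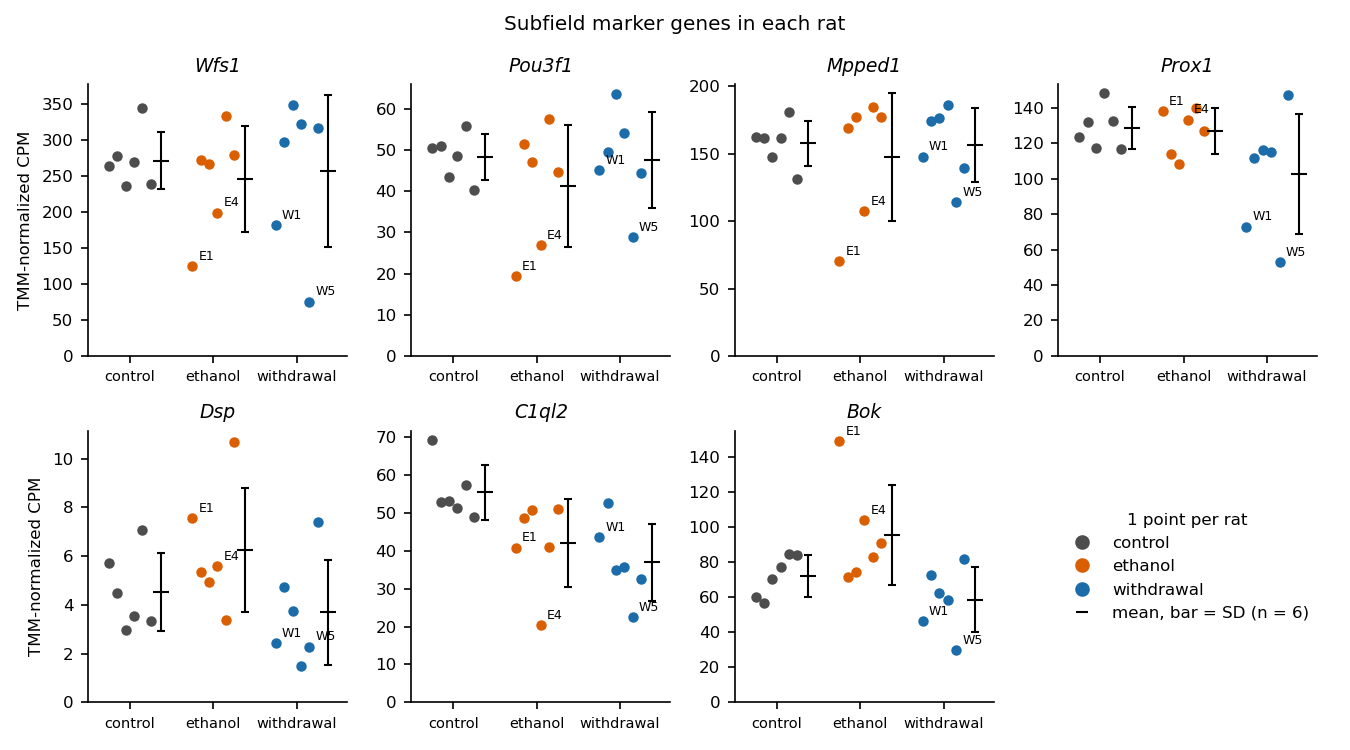
TMM-normalized CPM of the 7 tested genes in each rat (1 point per rat, linear axis from 0), with the mean and SD of each group of 6. Ethanol 1 and 4 (E1, E4) sit low for the 3 CA1 genes and high for Bok, and withdrawal 1 and 5 (W1, W5) sit low for Prox1 and Bok.

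Among the dentate genes, Prox1 passed the threshold in W vs. C. Prox1 (chr13:108382536-108444107, +) was at 117, 128 and 148 CPM in the controls, 108, 130 and 140 in the ethanol rats, and 52.9, 114 and 147 in the withdrawal rats. Of 6 withdrawal rats, 5 were below every control, and the sixth, withdrawal 6, was at the upper end of the control range. Prox1 was lower in W vs. C by a log2 fold change of -0.26 (SE 0.080, 95% interval -0.43 to -0.089, q = 0.0968). Without surrogate variables the difference was -0.39 with q = 0.385, and the exact permutation test over the 924 splits of the rats gave p = 0.102. In the 14 rats without ethanol 1 and 4 and withdrawal 1 and 5, the fold change was -0.15 (q = 0.263). Of the 18 fits that left out 1 rat, q stayed below the threshold in 4, without control 5 (0.0918), ethanol 1 (0.0778), ethanol 6 (0.0916) or withdrawal 4 (0.0282). Without any one of the other 14 rats it was between 0.10 and 0.200, with fold changes from -0.29 to -0.20. Prox1 differed by -0.095 in E vs. C (q = 0.691) and -0.16 in W vs. E (q = 0.376), or -0.11 and -0.041 in the 14 rats. With no surrogate variables these were -0.019 and -0.38 (q = 0.980 and 0.266). Leaving out 1 rat moved the W vs. E value to between -0.20 and -0.087, the latter without ethanol 2, and the E vs. C value to between -0.15, also without ethanol 2, and -0.050 without ethanol 6, with -0.060 without ethanol 5.

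C1ql2 (chr13:36378187-36379722, +) had the largest fold change of the 7 genes in W vs. C. It was at 49.0, 53.0 and 69.1 CPM in the controls, 20.4, 44.9 and 51.0 in the ethanol rats, and 22.6, 35.3 and 52.6 in the withdrawal rats. All 6 ethanol and all 6 withdrawal rats were below the control mean of 55.4 CPM, and 4 ethanol and 5 withdrawal rats were below every control. The fold change was -0.57 in W vs. C (SE 0.18, 95% interval -0.95 to -0.19), with q = 0.104, which did not pass the threshold, and -0.34 in E vs. C (SE 0.19, q = 0.490). The exact permutation test, unadjusted, gave p = 0.00649 for W vs. C and p = 0.00866 for E vs. C. In W vs. E the difference was -0.23 (q = 0.615), with values from -0.39 without withdrawal 2 to -0.045 without withdrawal 6, and -0.14 without withdrawal 3 or ethanol 3. Without surrogate variables the W vs. C difference was -0.62 (q = 0.253), and in the 14 rats -0.49 (q = 0.107). The E vs. C difference was -0.21 in the 14 rats (q = 0.451) and -0.22 without ethanol 4 alone (q = 0.530), and the W vs. E difference -0.28 in the 14 rats. The q in W vs. C passed the threshold without ethanol 1 (0.0813), ethanol 4 (0.0421) or withdrawal 2 (0.0357), and lay between 0.107 and 0.371 in the other 15 fits that left out 1 rat.

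Dsp (chr17:27286811-27334453, -) was at 2.96, 4.03 and 7.06 CPM in the controls, 3.40, 5.47 and 10.7 in the ethanol rats, and 1.51, 3.09 and 7.41 in the withdrawal rats. The highest values belonged to ethanol 6, ethanol 1 and withdrawal 6, and the lowest to withdrawal 4. Its fold changes were -0.14 in W vs. C (SE 0.24, q = 0.794), 0.14 in E vs. C (q = 0.869) and -0.27 in W vs. E (q = 0.638). At its low count, the 95% interval in W vs. C spanned -0.64 to 0.37, which includes a change of the size measured for C1ql2. In the 14 rats the fold changes were -0.15, 0.19 and -0.34. With no surrogate variables they were larger, -0.37, 0.44 and -0.82 (q = 0.725, 0.622 and 0.208). The W vs. E value depended on single rats, from -0.62 without ethanol 5 to -0.17 without withdrawal 4, -0.12 without ethanol 6 and -0.092 without ethanol 2, and with no surrogate variables from -1.07 to -0.60, where q passed the threshold in 2 of 18 fits. The W vs. C and E vs. C values also moved by over 1.5 times with 1 rat left out, from -0.25 to 0.015 and from -0.0071 to 0.44.

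Bok (chr9:100829593-100840498, +) was the 1 gene of the 7 to pass the threshold between the ethanol and withdrawal rats when no surrogate variables were removed. It was at 56.7, 73.6 and 84.3 CPM in the controls, 71.6, 86.8 and 149 in the ethanol rats, and 29.8, 60.4 and 81.6 in the withdrawal rats. All 6 withdrawal rats were below the ethanol mean of 95.3 CPM, 4 of them below every ethanol rat. In W vs. E the log2 fold change was -0.31 with 3 surrogate variables (SE 0.11, q = 0.185) and -0.72 without them (q = 0.0978), and the exact permutation p was 0.0130. In the 14 rats the difference was -0.18 (q = 0.264), and without withdrawal 4 it was -0.33 (q = 0.0802), the 1 of 18 fits with a rat left out that passed, the others reaching q = 0.578. With no surrogate variables q passed in 3 of 18 such fits, without ethanol 5 (0.0611), withdrawal 2 (0.0677) or withdrawal 6 (0.0647), and reached 0.190 without ethanol 1. Bok differed by -0.20 in W vs. C (SE 0.10, q = 0.288) and by 0.11 in E vs. C (q = 0.731), or -0.072 and 0.10 in the 14 rats, and by -0.35 and 0.37 with no surrogate variables (q = 0.550 and 0.516). With 1 rat left out, W vs. C fell to -0.11 without withdrawal 5 and -0.13 without withdrawal 6, and E vs. C to 0.053 without control 1, 0.070 without control 2 and 0.066 without ethanol 2.

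Counted over the set, 1 of 7 tested genes passed q < 0.1 in W vs. C, in the lower direction, where 5.41% of all tested genes passed in either direction and 2.55% in the lower one. At an unadjusted limma p under 0.05 there were 2 of 7, Prox1 and C1ql2, beside 19.7% of all genes, and without surrogate variables again 2 of 7 beside 12.1%. In E vs. C the number was 0 of 7 beside 0.493% of all genes, with 0 of 7 at an unadjusted limma p under 0.05 beside 12.5%, 1 of 7 without surrogate variables beside 11.3%, and 0 past the threshold by edgeR or DESeq2. In W vs. E it was 0 of 7 beside 2.72% (1.49% in the lower direction), with 1 of 7, Bok, at an unadjusted p under 0.05 beside 16.7%, and Bok alone by edgeR and by DESeq2, both without surrogate variables. Without surrogate variables the numbers were 0, 0 and 1 of 7, beside 0.23%, 0.28% and 3.48% of all genes, and the 1 was Bok, in the lower direction, where 1.7% of all genes were. In that fit 3 of 7 genes were at an unadjusted p under 0.05 in W vs. E, beside 18.6%. The exact permutation test was under 0.05 for 1 gene in each comparison, C1ql2, C1ql2 and Bok, where 12.8%, 13.5% and 14.3% of all genes were. No gene of the 7 had groups that did not overlap in any comparison, beside 1.06%, 1.32% and 1.22% of all genes. The median fold change of the 7 was -0.14 in W vs. C, 0.024 in E vs. C and -0.16 in W vs. E, beside 0.0003, 0.0005 and -0.0002 over all genes, and 7, 2 and 7 of the 7 were negative. Without surrogate variables the medians were -0.35, -0.17 and -0.16, with 7, 5 and 5 of 7 negative, so the median in E vs. C had the opposite sign. W vs. C and E vs. C share the control rats.

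**Figure D2:**
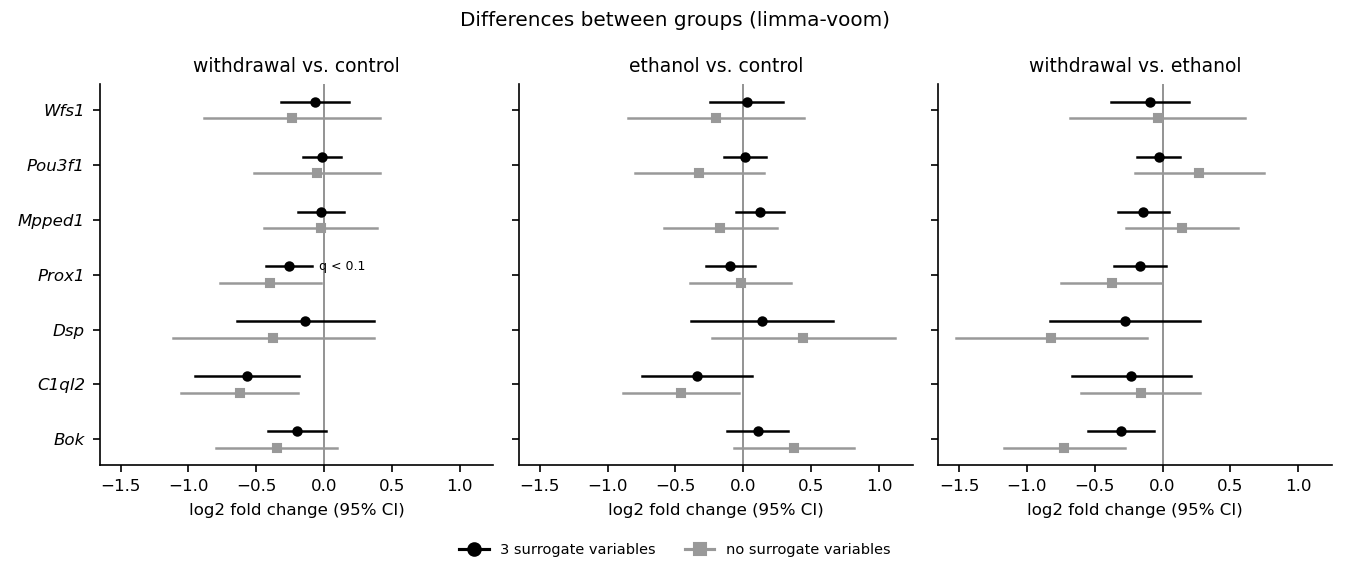
Log2 fold change with 95% confidence interval for the 7 tested genes in the 3 comparisons, from limma-voom with 3 surrogate variables (black circles) and with none (grey squares). Prox1 in withdrawal vs. control is marked as the 1 gene with q < 0.1, and the intervals of the CA1 genes narrow most when surrogate variables are removed.

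The spread within groups was larger than that of most genes. The SD of log2 CPM within groups, pooled over the 3 groups, was 0.584 for Wfs1 and 0.632 for Dsp, at percentiles 90.8 and 92.5 of all genes tested, and Prox1 had the lowest of the 7, 0.334 at percentile 72.4. Over all 6 rats, the controls were the tightest group for every one of the 7 genes. For Wfs1 the SD was 0.197 in the controls, 0.509 in the ethanol rats and 0.852 in the withdrawal rats, and 0.107 without control 5, 0.269 without ethanol 1 and 0.374 without withdrawal 5, while the median gene had 0.132, 0.178 and 0.195. Pou3f1 and Mpped1 varied most among ethanol rats (0.614 and 0.566), and Prox1 and Bok most among withdrawal rats (0.542 and 0.522). The SD of Mpped1 in ethanol rats was 0.326 without ethanol 1, and that of Bok 0.217 without ethanol 1 in the ethanol and 0.313 without withdrawal 5 in the withdrawal rats. For C1ql2 it was 0.161 without ethanol 4 in place of 0.503, and 0.0830 without control 1 in place of 0.177. Pou3f1 in withdrawal rats was at 0.214 without withdrawal 5, and no other rat moved an SD of these genes by over 1.5 times, apart from control 6 for Mpped1 (0.104). Diet group took up 3.58% of the variance of Wfs1, 4.54% of Mpped1 and 11.2% of Pou3f1, and the surrogate variables a further 82.4% to 83.4%. For C1ql2 the shares were 35.2% and 18.0%, for Prox1 26.3% and 61.0%, and for Bok 39.7% and 48.1%.

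The balance of the dentate and CA1 genes within a rat was described by the mean log2 CPM of Prox1, Dsp and C1ql2 minus that of Wfs1, Pou3f1 and Mpped1, a difference that does not depend on the scaling of the library. It was -2.01 ± 0.106 (SD, n = 6) in the controls, from -2.11 to -1.82 (SD 0.0481 without control 1). It was -1.80 ± 0.631 in the ethanol rats, from -2.49 in ethanol 5 to -0.66 in ethanol 1 (-2.02 ± 0.332 without ethanol 1), and -2.39 ± 0.389 in the withdrawal rats, from -2.99 in withdrawal 4 to -1.92 in withdrawal 6. The withdrawal rats were thus lower on average by 0.37 than the controls and by 0.59 than the ethanol rats, and the groups overlapped. The CA1 mean was 6.99 ± 0.169, 6.76 ± 0.558 and 6.88 ± 0.485 in C, E and W, and the dentate mean 4.97 ± 0.216, 4.96 ± 0.260 and 4.49 ± 0.464, with an SD of the CA1 mean of 0.332 in E without ethanol 1 and 0.221 in W without withdrawal 5. Dsp, which followed the choroid plexus list as given below, carried part of the balance, and without it the differences were -0.40 for W minus C, -0.0057 for E minus C and -0.40 for W minus E, in place of -0.37, 0.22 and -0.59. The dentate genes in it did not move together across the rats as the CA1 genes did, as given below, so it describes these genes and not the subfields as such. No test is given for this balance, because its genes were chosen with results of these data known. In the 14 rats the differences were -0.42 for W minus C, -0.078 for E minus C and -0.34 for W minus E, so the mean of the ethanol group moved across that of the controls.

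**Figure D3:**
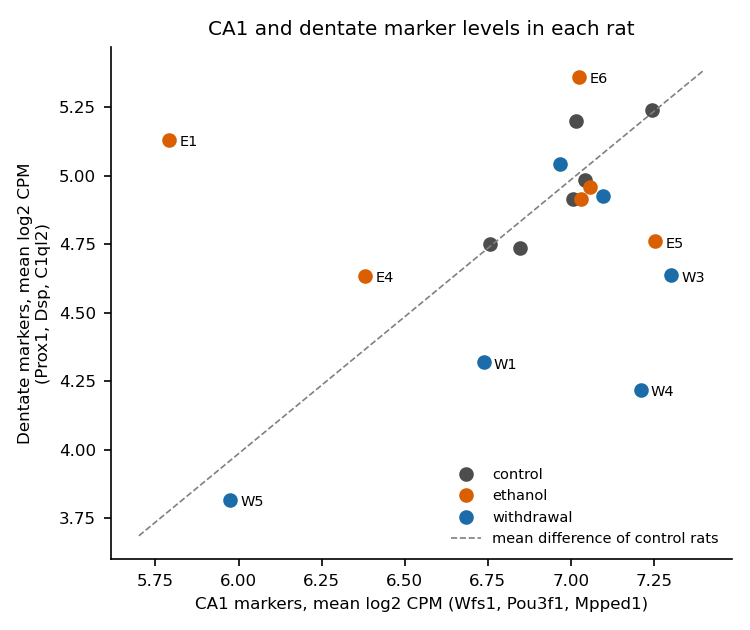
Mean log2 CPM of 3 dentate genes against that of 3 CA1 genes in each rat, with a dashed line at the mean difference of the controls (-2.01). Controls lie along the line, ethanol 1, 4 and 6 lie above it, withdrawal 4, 3 and 1 and ethanol 5 lie furthest below it, and withdrawal 5 is low on both axes.

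Single genes were also set against each other within each rat, with values without 1 rat, chosen after the data were seen, where that rat moved the SD by over 1.5 times. The log2 ratio of Bok to Prox1 was -0.85 ± 0.270 in C, -0.45 ± 0.307 in E (-0.56 ± 0.157 without ethanol 1) and -0.81 ± 0.140 in W. That of Wfs1 to Mpped1, both CA1 genes, was 0.78 ± 0.096, 0.75 ± 0.124 and 0.57 ± 0.643. The wide spread in the third group rested in part on withdrawal 5, at -0.60. The other 5 withdrawal rats gave 0.80 ± 0.328, still a wider spread than in the other groups. That of Prox1 to Mpped1 was -0.29 ± 0.126, -0.14 ± 0.655 and -0.66 ± 0.421, with -0.37 ± 0.398 in E without ethanol 1 and -0.81 ± 0.235 in W without withdrawal 6.

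Across the 18 rats the CA1 genes rose and fell together. Over 21 pairs of the 7 genes, the strongest correlation of log2 CPM was that of Pou3f1 with Mpped1, with Pearson r = 0.95 (permutation p = 1e-05, the smallest that 100000 permutations can give, adjusted p = 0.00021) and Spearman rho = 0.83 (p = 5e-05, adjusted p = 0.00094). It was 0.87 without ethanol 1 and 4, 0.98 within the first index set, which is the control group, and 0.97 within the second. Wfs1 with Pou3f1 gave r = 0.81 (permutation p = 0.00082, adjusted p = 0.0057) and rho = 0.81 (p = 9e-05), and 0.74 without withdrawal 5 and ethanol 1. Wfs1 with Mpped1 gave r = 0.76 (permutation p = 0.0034, adjusted p = 0.018) and rho = 0.78 (p = 0.00024), and 0.70 without the same rats. Within the first and second index sets these were 0.89 and 0.88, and 0.88 and 0.92. The third set, of 4 rats, was too small to give a value. By r over all genes tested, Mpped1 ranked 3 for Pou3f1 and Pou3f1 ranked 1 for Mpped1. For Wfs1, Pou3f1 ranked 446 and Mpped1 686, so many genes outside the CA1 set followed Wfs1 more closely.

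The dentate genes did not form such a group. Prox1 with Dsp gave r = 0.52 (permutation p = 0.028, adjusted p = 0.083) and rho = 0.47 (adjusted p = 0.18), with r = 0.32 without withdrawal 5 and 1. Prox1 with C1ql2 gave r = 0.33 (permutation p = 0.17, adjusted p = 0.33), which was -0.24 without withdrawal 5 and 1, and Dsp with C1ql2 gave r = 0.24 (permutation p = 0.34, adjusted p = 0.47). Prox1 was closer to Bok, with r = 0.79 (permutation p = 0.00024, adjusted p = 0.0025) and rho = 0.62 (adjusted p = 0.027). That relation rested largely on withdrawal 5 and 1, since r was 0.42 without them, and it was 0.04 within the first index set and 0.86 within the second. Dsp with Bok gave r = 0.64 (permutation p = 0.0049, adjusted p = 0.021) and rho = 0.65 (adjusted p = 0.025), 0.68 without withdrawal 4 and ethanol 6, and -0.09 and 0.71 within the first and second sets. Wfs1 with Prox1 gave r = 0.67 (permutation p = 0.013, adjusted p = 0.046) but rho = 0.24 (adjusted p = 0.72), with r = 0.52 without withdrawal 5 and ethanol 1, and 0.53 and 0.10 within the sets. For C1ql2, the adjusted p was 0.10 or above with each of the other 6 genes.

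The marker genes also moved with other marker lists, in 42 correlations of the 7 genes with the summed CPM of 6 lists. The excitatory neuron, interneuron and oligodendrocyte lists mark cell types that the hippocampus also holds. The thalamus, neocortex and choroid plexus lists mark neighboring tissue. Wfs1 followed the excitatory neuron list (Slc17a7, Neurod6, Neurod2, Camk2a, Nrgn), with r = 0.97 (permutation p = 1e-05, adjusted p = 8.4e-05), rho = 0.91, and 0.90 without withdrawal 5 and ethanol 1. With this list Pou3f1 gave r = 0.82 (permutation p = 0.00039, adjusted p = 0.002) and Mpped1 r = 0.77 (permutation p = 0.0014, adjusted p = 0.0063). Without the same rats these were 0.675 and 0.645. Mpped1 ran against the thalamus list (Tcf7l2, Prkcd, Lef1, Zic1, Slc17a6, Rgs16), with r = -0.91 (permutation p = 1e-05, adjusted p = 8.4e-05), rho = -0.83, and -0.79 without ethanol 1 and 4. Pou3f1 did so with r = -0.87 (permutation p = 1e-05) and rho = -0.86, and -0.69 without them. Within the first and second index sets the values were 0.81 and 0.96 for Wfs1, -0.81 and -0.96 for Mpped1, and -0.81 and -0.97 for Pou3f1. All 6 thalamus genes were detected, with a summed level of 254 to 770 CPM in the controls, 1474 in ethanol 1, 841 in ethanol 4 and 193 to 573 in the withdrawal rats. The part of this in the low CA1 values of ethanol 1 and 4 was not tested.

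Bok ran against the interneuron list (Gad1, Gad2, Slc32a1, Sst, Pvalb, Lhx6), with r = -0.88 (permutation p = 1e-05, adjusted p = 8.4e-05), rho = -0.89, and -0.75 without withdrawal 5 and 1. Prox1 did so with r = -0.81 (permutation p = 8e-05, adjusted p = 0.00056) and rho = -0.73, and -0.51 without them. Within the index sets the values were -0.69 and -0.83 for Bok and -0.25 and -0.82 for Prox1. Prox1 also ran against the neocortex list (Rorb, Cux2, Fezf2, Cplx3, Tshz2), with r = -0.75 (permutation p = 0.00011, adjusted p = 0.00066) and rho = -0.73. It was -0.71 without ethanol 5 and withdrawal 5, and -0.61 and -0.69 within the index sets. The interneuron list summed to 407 to 576 CPM in the controls, 374 to 600 in the ethanol rats, 666 in withdrawal 1 and 812 in withdrawal 5. The neocortex list summed to 151 to 224 in the controls, 241 in ethanol 2, 269 in withdrawal 1 and 300.1 in withdrawal 5. The excitatory neuron list summed to 2747 to 3747 CPM in the controls, 2450 in withdrawal 1 and 1507 in withdrawal 5. Ethanol 1 and ethanol 4 were also below every control on this list, at 1885 and 2595 CPM. Their Prox1, at 138 and 133 CPM, lay within the control range. The part of these lists in the low Prox1 of withdrawal 1 and 5 was not tested, and Prox1 in W vs. C is given above without these 2 rats.

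Dsp followed the choroid plexus list (Ttr, Folr1, Kl, Kcnj13, Clic6; Otx2 was below the filter), with r = 0.80 (permutation p = 1e-05, adjusted p = 8.4e-05), rho = 0.82, and 0.79 without withdrawal 4 and 5, the rats with the least choroid plexus RNA. It was 0.60 and 0.82 within the index sets. The list summed to 1065 to 2225 CPM in the controls, to 5248 in ethanol 1, 4877 in ethanol 6 and 5249 in withdrawal 6, the 3 rats with the highest Dsp, and to 27.8 in withdrawal 4, the rat with the lowest. Its part in the Dsp values was not tested. Bok gave r = 0.72 with this list (permutation p = 0.0015, adjusted p = 0.0065) and rho = 0.73, 0.69 without withdrawal 4 and 5, but -0.07 within the first set and 0.86 within the second. Prox1 gave r = 0.65 with it (permutation p = 0.008, adjusted p = 0.024) and rho = 0.64, and 0.52 without the same rats. For C1ql2, no list gave an adjusted p below 0.1, with r from -0.32 to 0.43.

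**Figure D4:**
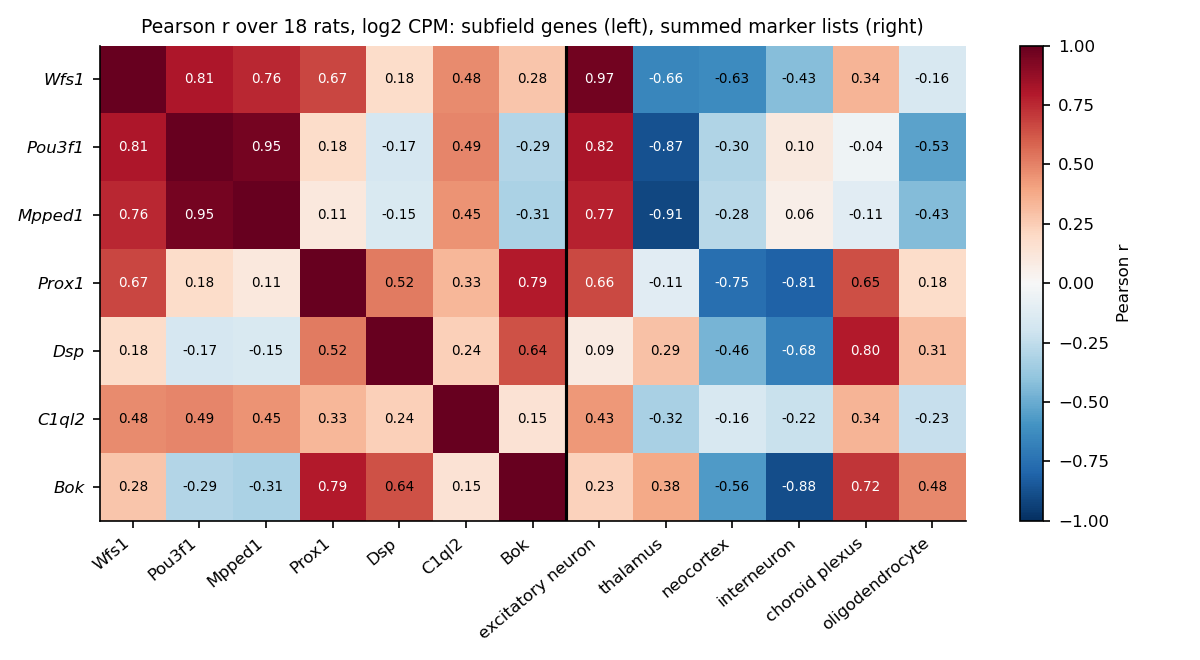
Pearson r over 18 rats between the log2 CPM of the 7 genes (left of the black line) and between each gene and the summed level of 6 marker lists (right), on a color scale from -1 (blue) to 1 (red). The CA1 genes form a block of 0.76 to 0.95 with each other, and C1ql2 has no value beyond 0.49 in either direction.

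**Figure D5:**
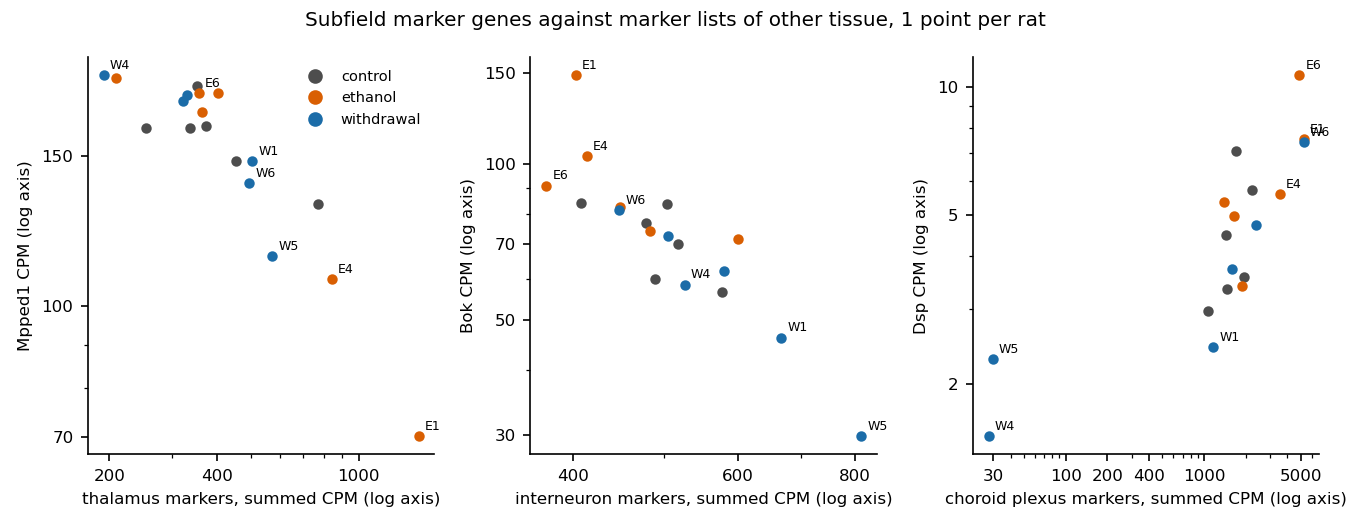
Mpped1 against the thalamus list, Bok against the interneuron list and Dsp against the choroid plexus list, in CPM on log axes, with 1 point per rat and selected rats named (E, ethanol; W, withdrawal). Mpped1 falls to 70.3 CPM in ethanol 1, Bok to 29.8 in withdrawal 5, and Dsp to 1.51 in withdrawal 4.

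Of the other markers of the subfields, Il16 alone passed the threshold with 3 surrogate variables. Of 7 tested among 8 other dentate genes, 1 was lower in W vs. C, Il16, a cytokine gene also found in neurons, with -0.37 (q = 0.0790), and the list had a median of -0.12. Without surrogate variables Il16 was at -0.52 with q = 0.492, and it passed in 8 of 19 alternatives. Of 2 other CA1 genes (Man1a1, Ndst4), 4 tested CA3 genes, 6 CA2 genes, 4 mossy cell genes and 6 genes of newborn granule neurons, 0 of 22 passed in any comparison by limma with 3 or no surrogate variables, by edgeR or by DESeq2. Under other limma settings up to 3 of them passed in W vs. C (with 4 surrogate variables), 1 in E vs. C (with 5) and 2 in W vs. E (with 1). At an unadjusted limma p under 0.05 there were 7, 3 and 3 of these 22 in W vs. C, E vs. C and W vs. E, beside 19.7%, 12.5% and 16.7% of all genes. Man1a1 and Ndst4 had log2 fold changes of 0.21 (q = 0.179) and -0.33 (q = 0.120) in W vs. C. The medians of the CA3, CA2, mossy cell and newborn neuron lists in W vs. C were -0.032, -0.097, -0.044 and -0.023. The level of the CA1 genes in each rat, as the mean of their standardized log2 CPM, correlated with Ndst4 at r = 0.79 and Man1a1 at 0.73. The genes of the excitatory neuron list, which are not particular to CA1, correlated with it more closely. Nrgn was at 0.97, Neurod6 at 0.88, Slc17a7 at 0.86, Camk2a at 0.84 and Neurod2 at 0.82. The dentate genes used as a second set did not all follow the dentate profile of Prox1, Dsp and C1ql2. Il16, Sema5a, Plk5 and Dock10 correlated with it at 0.72, 0.65, 0.56 and 0.52, but Trpc6, Stxbp6 and Rfx3 at 0.12, 0.16 and 0.43, against 0.80, 0.69 and 0.83 with the CA1 profile. The first 4 correlated with the CA1 profile at 0.56, 0.68, 0.28 and 0.56, so that only Il16 and Plk5 of the 7 were closer to the dentate profile. These are descriptions over 18 rats whose values share the scaling of each library.

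The genes most like the CA1 profile, of 15137 ranked, were Nrgn (r = 0.967), Esyt3 (0.963), Gpr161 (0.960), LOC102548116 (0.954) and Mical2 (0.953). Nrgn, which encodes the postsynaptic calmodulin-binding protein neurogranin, is itself in the excitatory neuron list. Those most like the dentate profile were She (0.905), Matn2 (0.900), Wnt4 (0.887), Pyroxd2 (0.883) and Ankdd1a (0.875), with lower values than the CA1 set. Wnt4 encodes a secreted signaling protein and Matn2 an extracellular matrix protein.

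Of the markers of other cell types, those that passed the threshold with 3 surrogate variables belonged to the astrocyte, endothelial and interneuron lists. In W vs. C, Gfap was higher (0.54, q = 0.0775), Aldh1l1 (-0.41, q = 0.0487) and Gja1 (-0.13, q = 0.0866) of the same astrocyte list were lower, and Pecam1 (0.34, q = 0.0257) and Flt1 (0.28, q = 0.0629) of the endothelial list were higher. The astrocyte list held 6 genes and the endothelial list 5, with medians of 0.0066 and 0.11, and of the other endothelial genes Cldn5 was at 0.11, Slco1a4 at -0.079 and Abcb1a at -0.039. Without surrogate variables 0 of these 5 passed in W vs. C, with q from 0.205 for Pecam1 to 0.385 for Gfap. In W vs. E, Gad2 of the interneuron list (0.35, q = 0.0578) and Gfap (0.74, q = 0.0578) were higher, also without surrogate variables (q = 0.0821 and 0.0773). The oligodendrocyte, microglia, excitatory neuron, choroid plexus, thalamus, neocortex and ventral hippocampus lists had 0 of 37 genes past the threshold in any comparison by limma with 3 or no surrogate variables, and 0 by edgeR or DESeq2 apart from 1 in E vs. C by edgeR with 3 surrogate variables. Under other limma settings up to 5 passed in W vs. C (replicate block), 3 in E vs. C (5 surrogate variables, and the 14 rats) and 4 in W vs. E (sample quality weights). At an unadjusted limma p under 0.05 there were 7, 8 and 9 of the 37 in W vs. C, E vs. C and W vs. E, beside the same shares of all genes as above. The choroid plexus list had medians of -1.09, 0.92 and -2.01 in W vs. C, E vs. C and W vs. E without surrogate variables, and -0.11, 0.27 and -0.49 with them.

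Within the second index set, 2 withdrawal rats could be set against the 6 ethanol rats, where the smallest exact p is 0.0357. Bok was lower there by 0.67 on the log2 scale (exact permutation p = 0.107), beside 0.73 over all rats. Prox1 differed by -0.49 (exact permutation p = 0.0714), Dsp by -0.77 (p = 0.143, exact) and C1ql2 by 0.25 (p = 0.5, exact), the last in the direction opposite to that over all rats. Wfs1, Pou3f1 and Mpped1 differed by -0.014, 0.29 and 0.20, and 1 of the 2 withdrawal rats in this set was withdrawal 1.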

How the data were processed

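The 18 libraries (6 rats per group) were made from the dorsal hippocampus with a stranded kit. The submitters' processing notes name STAR 2.5.2a, Rnor_6.0 and featureCounts 1.5.0, and the authors deposited whole-number counts per gene. Identifiers were named from a GRCr8 table (29322 of 38445). Counting by strand kept Fibcd1, Wfs1 and Prox1 apart from genes on the other strand.

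Counts were scaled by TMM (edgeR 4.0.16), and 17853 genes above 0.5 CPM in at least 1 rat were kept. The study adjusted for surrogate variables before limma-voom, and their number is not given in the sources used here. In this report 3, the number of an earlier processing of these data (sva 3.50.0, log2 CPM with prior count 2), entered a limma 3.58.1 voom model of all 3 groups in R 4.3.3, with Benjamini-Hochberg adjustment (q) within each comparison and a threshold of 0.1. For single genes, an exact permutation test, two-sided and over all 924 splits, was added (smallest p 0.00216), and correlations by 100000 permutations, in Python 3.11.15 with numpy 2.4.6, pandas 2.3.3 and scipy 1.17.1. Plots were drawn with matplotlib 3.10.9. In data simulated for W vs. C with 200 of 17853 genes changed by a median of 0.999 on the log2 scale, more than any marker gene here, limma-voom recovered 191 with 17 false calls. The hidden variation simulated was 1 factor balanced over the groups, unlike the index sets here. These numbers check the code and do not carry over to the marker genes. Within groups, 45 pairs of libraries were checked for duplicates, and the lowest chi-square per degree of freedom was 5.44, so each counted once.

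The marker genes and lists were chosen with earlier results of these data known. The list of other CA1 markers is given without 1 gene, which is not reported here. All 9 genes are described, together with list genes at q < 0.1 and the 5 genes most correlated with each profile (mean CPM of at least 1). Alternatives were other numbers of surrogate variables, edgeR, DESeq2 1.42.0, other scaling and filters, sample weights, a stricter threshold, a replicate block, an index set term and leaving out each rat.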

Additional observations from a re-analysis of the deposited data

Results flagged for a closer look

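C1ql2, the dentate gene that encodes a synaptic C1q-like protein, was at 20.4 CPM in ethanol 4, while the other 5 ethanol rats lay between 40.8 and 51.0 CPM. The gap to the next rat was 0.757 of the range of the group, above the critical value of Dixon's test for 6 samples. The thalamus list was also high in this rat, at 841 CPM, and its part in the C1ql2 value was not tested. Without ethanol 4, C1ql2 in W vs. C was -0.54 (limma q = 0.0421).

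The dentate minus CA1 difference in control 1 was -1.82, the highest of the controls, and the other 5 lay at -2.0 or below, down to -2.11. The gap was 0.631 of the range. Of 24 groups examined in this way, 2 had such a sample, and chance alone gives about 1 in 20.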

How the results depend on the processing

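The number of marker genes with q < 0.1 in W vs. C, 1 with 3 surrogate variables (SV), was 0 with no, 1, 2 or 5 SV, with edgeR or DESeq2 without SV, with no filter, with both groups alone, at q < 0.05, and, as alternatives chosen after the data were seen, with TMM factors from all genes and in the 14 rats with or without SV. It was 2, Prox1 and C1ql2, with 4 SV, total-count scaling or the filter on at least 6 rats. With sample quality weights it was 1, C1ql2 (q = 0.0678) in place of Prox1 (q = 0.130). In W vs. E, 0 with 3 SV, it was 1, Bok, with no, 1 or 4 SV and with edgeR or DESeq2 without SV. In E vs. C it was 0 throughout. Leaving out 1 rat with or without SV gave 0 to 2 in W vs. C, 0 to 0 in E vs. C and 0 to 2 in W vs. E. The share of all genes that passed itself moved, from 5.41% with 3 SV to 0.23% with no SV in W vs. C. In W vs. E it was 2.72% with 3 SV and 3.48% with no SV. Shares for the other settings, the replicate block among them, are not given here. The numbers of marker genes under those settings therefore have no background beside them. Over its alternatives, q was 0.0527 to 0.771 for Prox1 in W vs. C, 0.0363 to 0.285 for C1ql2 in W vs. C and 0.0251 to 0.501 for Bok in W vs. E. All 3 kept their direction in every alternative. The index set as a term could be fitted for W vs. E only. The cause of these differences was not tested.

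The replicate numbers were shared between groups but did not pair the rats. Deviations of rats with the same number correlated at -0.32 to 0.38, and 4 of 18 pairs were over 0.1. With the replicate block and 3 SV, 2 marker genes passed in W vs. C, Prox1 (-0.27, q = 0.0805) and C1ql2 (-0.62, q = 0.0363). With the replicate block and no SV it was 0.

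With all rats or the 14 rats, the fold changes that changed sign were those of Wfs1, Pou3f1 and Mpped1, none of which passed the threshold in any comparison, and 1 value of C1ql2. For Wfs1 in W vs. C the value was 0.11 with 5 SV, 0.020 with no filter, 0.0050 with quality weights, 0.14 with 14 rats and 0.24 with 14 rats without SV. For Wfs1 in E vs. C the value was -0.20 with no SV, -0.22 with 1 SV, -0.058 with 2 SV, -0.14 with edgeR, -0.15 with DESeq2, -0.20 with both groups alone and -0.20 with the replicate block without SV. For Wfs1 in W vs. E the value was 0.20 with 1 SV, 0.022 with 5 SV, 0.064 with edgeR, 0.063 with DESeq2, 0.066 with 14 rats and 0.15 with 14 rats without SV. For Pou3f1 in W vs. C the value was 0.034 with 1 SV, 0.032 with 5 SV, 0.039 with no filter, 0.0099 with quality weights, 0.031 with 14 rats and 0.12 with 14 rats without SV. For Pou3f1 in E vs. C the value was -0.32 with no SV, -0.33 with 1 SV, -0.074 with 2 SV, -0.0022 with 4 SV, -0.23 with edgeR, -0.23 with DESeq2, -0.0038 with total-count scaling, -0.0021 with the stricter filter, -0.33 with both groups alone and -0.30 with the replicate block without SV. For Pou3f1 in W vs. E the value was 0.27 with no SV, 0.37 with 1 SV, 0.0046 with 5 SV, 0.21 with edgeR, 0.21 with DESeq2, 0.27 with both groups alone, 0.25 with the replicate block without SV, 0.30 with index set as a term and 0.060 with 14 rats without SV. For Mpped1 in W vs. C the value was 0.045 with 1 SV, 0.038 with 5 SV, 0.017 with no filter, 0.012 with 14 rats and 0.092 with 14 rats without SV. For Mpped1 in E vs. C the value was -0.17 with no SV, -0.18 with 1 SV, -0.094 with edgeR, -0.096 with DESeq2, -0.17 with both groups alone and -0.17 with the replicate block without SV. For Mpped1 in W vs. E the value was 0.14 with no SV, 0.22 with 1 SV, 0.082 with edgeR, 0.082 with DESeq2, 0.14 with both groups alone, 0.14 with the replicate block without SV and 0.20 with index set as a term. C1ql2 in W vs. E was 0.26 with index set as a term. With 1 rat left out, the fold change ran from -0.36 to 0.085 in W vs. C, -0.30 to 0.14 in E vs. C and -0.22 to 0.28 in W vs. E for Wfs1, from -0.15 to 0.085, -0.44 to 0.066 and -0.054 to 0.40 for Pou3f1, and from -0.080 to 0.062, -0.25 to 0.18 and -0.20 to 0.23 for Mpped1. Leaving out 1 rat also turned the sign of Prox1 and Dsp in a few fits. It ran from -0.15 to 0.025 for Prox1 in E vs. C, from -0.62 to 0.015 for Dsp in W vs. C and from -0.0071 to 0.60 for Dsp in E vs. C.

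The dentate minus CA1 difference in E vs. C, 0.22, was -0.28 with the median over the markers, and -0.0057 without Dsp. With that median it was -0.50 in W vs. C, beside -0.37, and -0.22 in W vs. E, beside -0.59, so that the larger of these 2 differences became the smaller. With 1 rat left out it was -0.0082 to 0.36, -0.47 to -0.25 in W vs. C and -0.73 to -0.36 in W vs. E. Fibcd1 and Tdo2 had too few counts to be tested, and Dsp had the fewest of the 7 tested genes.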
